A study of Mus musculus with 7 samples.

Results

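The deposited H3K79me2 read-count table lists 29397 genomic intervals, here called regions, and the shortest of them are exactly 500 bp long. The regions described here are those of that minimal length that lie on chromosomes 1 to 19 and overlap the RefSeq span of at least 1 protein-coding gene. There were 7016 of these minimal regions, 23.9% of the table, among 8366 regions of 500 bp on all chromosomes. They were chosen by length and position, without their read counts. Region length itself comes from region calling on the same assay, so length and count are not independent.

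The libraries come from bone marrow-derived macrophages (BMDMs), cells grown out of C57BL/6 mouse marrow for 7 to 8 days in L929-conditioned medium, which supplies M-CSF. Chromatin immunoprecipitation with an antibody to H3K79me2 was sequenced from 3 cultures that received 1 µM SGC0946 while they differentiated and from 3 that received the solvent DMSO over the same time. SGC0946 is a small-molecule inhibitor of DOT1L. The design text calls the 3 cultures of each group biological replicates, and the growth protocol names both WT and KO mice without saying which gave these cells, so genotype is known only as far as the strain label. A single input library has no column in the count table.

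H3K79me2 is dimethylation of lysine 79 in the globular core of histone H3, and DOT1L is the methyltransferase that deposits it. The mark covers the bodies of transcribed genes, is usually densest in their 5′ part, and thins out towards the 3′ end. In macrophages, which take up and store lipid and respond to microbial signals, the mark is therefore found over genes that the cells transcribe.

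The minimal regions overlapped 3524 of the 9249 coding genes on these chromosomes with any region. Counting each region under the gene it overlapped most, they fell in 3443 coding genes. All but 48 of the minimal regions lay wholly inside 1 coding gene's span, 76 touched more than 1 coding gene, and together they covered 3.51 Mb. Of the 3443 genes, 2079 held 1 minimal region, 1308 held 2 to 9, and 56 held 10 or more. The genes that carried one were long, with a median span of 51479 bp, against 17419 bp for coding genes that had a region but no minimal one. Most minimal regions lay close to another region, at a median distance of 1243 bp. Exon and intron annotation was not used here.

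Gene starts were rare among them. RefSeq promoter windows (GRCm38.p6), which run from 250 bases before to 50 bases after a start, touched 53 of the 6814 minimal regions that could be set against the windows, or 0.778%, against 49.8% of the regions over 5000 bp in coding genes. Regions over 600 and up to 1000 bp touched a window in 1.37% of cases. A longer region covers more sequence and can touch a window more often by length alone, which was not corrected for.

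Only 11 minimal regions held a whole window, and the sequences of 4 of those windows are printed because they span the range from a CG-rich start beside a broad region to the start of a gene with no longer region. Each is given 5′ to 3′ on the plus strand, which is the strand of all 4 genes, and capitals mark the CG dinucleotides. Lrp8 (an apolipoprotein E receptor, chr4:107802635-107802934) held 21 CG, Kcna3 (a voltage-gated potassium channel, chr3:107035912-107036211) 37, Ddx42 (an RNA helicase, chr11:106230416-106230715, an internal start) 1, and Prtn3 (proteinase 3, a neutrophil granule protease, chr10:79879417-79879716) 4.
Lrp8: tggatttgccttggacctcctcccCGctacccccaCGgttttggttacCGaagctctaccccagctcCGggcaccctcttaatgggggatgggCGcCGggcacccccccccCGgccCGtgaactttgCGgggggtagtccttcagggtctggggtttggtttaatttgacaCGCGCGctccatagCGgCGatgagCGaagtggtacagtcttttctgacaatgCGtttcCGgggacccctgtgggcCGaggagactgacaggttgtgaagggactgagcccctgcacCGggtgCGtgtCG
Kcna3: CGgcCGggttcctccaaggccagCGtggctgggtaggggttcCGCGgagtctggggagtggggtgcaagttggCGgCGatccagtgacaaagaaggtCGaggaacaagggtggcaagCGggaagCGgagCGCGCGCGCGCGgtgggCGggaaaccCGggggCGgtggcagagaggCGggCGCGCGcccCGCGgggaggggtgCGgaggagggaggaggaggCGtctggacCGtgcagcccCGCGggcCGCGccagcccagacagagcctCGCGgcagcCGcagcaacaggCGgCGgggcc
Ddx42: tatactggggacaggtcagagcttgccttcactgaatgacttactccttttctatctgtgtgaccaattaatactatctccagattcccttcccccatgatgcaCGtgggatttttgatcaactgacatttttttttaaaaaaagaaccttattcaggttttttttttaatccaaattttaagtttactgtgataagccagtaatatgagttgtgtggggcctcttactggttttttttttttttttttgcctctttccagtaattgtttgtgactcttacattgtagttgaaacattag
Prtn3: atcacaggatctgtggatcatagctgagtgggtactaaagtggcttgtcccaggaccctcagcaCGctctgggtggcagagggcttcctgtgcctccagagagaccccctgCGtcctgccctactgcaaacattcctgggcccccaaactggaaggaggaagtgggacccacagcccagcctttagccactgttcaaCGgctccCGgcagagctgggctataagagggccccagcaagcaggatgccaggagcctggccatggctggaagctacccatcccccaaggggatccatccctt

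The 4 printed starts behaved differently. The Lrp8 region had 5, 4 and 8 reads in the SGC0946 libraries, against 34, 44 and 41 in the DMSO libraries, so the groups lay far apart. The Ddx42 region had 1, 0 and 1 reads with SGC0946 and 17, 5 and 10 with DMSO, again without overlap. The Kcna3 region had 10, 3 and 6 reads with SGC0946 and 10, 9 and 11 with DMSO, and the groups overlapped at its CG-rich start. The Prtn3 region had 11, 5 and 4 reads with SGC0946 and 4, 3 and 3 with DMSO, and the groups met at 4 reads. In edgeR's quasi-likelihood test on unscaled counts without a count filter, Lrp8 (log2 change -2.78, adjusted p = 8.27e-16) and Ddx42 (log2 change -3.77, adjusted p = 0.000154) were lower with SGC0946. The same test did not call Kcna3 (adjusted p = 0.24) or Prtn3 (adjusted p = 0.262). As a share of each library's reads in regions, edgeR without the filter called 9.47% of all regions higher. Among them were Kcna3 (log2 change 1.87, adjusted p = 0.00481) and Prtn3 (log2 change 3.46, adjusted p = 0.000344). Lrp8 (adjusted p = 0.724) and Ddx42 (adjusted p = 0.455) were not called in share. The letters GAGGAAGT, searched on both strands, occurred in the Prtn3 window and in none of the other 7 windows with the highest counts, and in 3.13% of all 21263 windows of coding genes. The 53 minimal regions that touched a window averaged 5.04 ± 0.314 reads with SGC0946 and 14.3 ± 0.871 with DMSO (SD, n = 3 libraries each), and the median window inside a minimal region held 12 CG, against 13 over all windows.

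The values are numbers of reads per region, so the depth of each library sets their precision. Summed over all 29397 regions, the SGC0946 libraries held 3132235, 3006425 and 2952679 reads, against 16735417, 16991959 and 19520933 in the DMSO libraries. All libraries were sequenced to a nominal 40 M reads, per the labels, and how many reads of each mapped in all was not known here. Counts are therefore compared in 2 ways: unscaled, which treats the libraries as equally deep, and as a share of each library's reads in regions, which removes the common fall. Regions overlapped all 14 macrophage markers searched and 5 of 26 markers of other cell types, Kit, Klf1, Lck, Mpo and Zbtb46. Of those 5, all but Zbtb46 carried a minimal region. SGC0946 replicate 3 had fewer reads in minimal regions than the other 2 SGC0946 libraries.

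Minimal regions held few reads. Per region, the SGC0946 libraries averaged 3.71, 3.85 and 2.85 reads, and the DMSO libraries 13.9, 13.2 and 15.4. The group means were 3.47 ± 0.541 with SGC0946 and 14.2 ± 1.12 with DMSO (SD, n = 3 each). The SGC0946 mean was thus 24.5% ± 3.81 of the DMSO mean (SD over the SGC0946 libraries), a quantity called the percent kept below. No count in a minimal region exceeded 16 in an SGC0946 library, while the highest DMSO counts were 70, 53 and 63. Counts of 0 occurred in 283, 213 and 583 minimal regions of the SGC0946 libraries and in 86, 133 and 103 of the DMSO libraries.

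**Figure D1:**
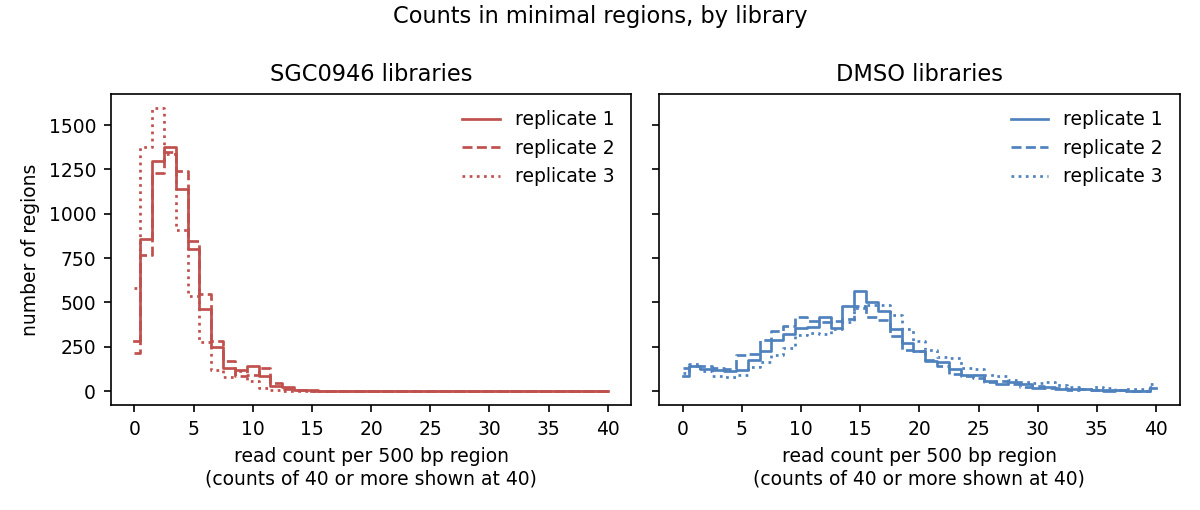
Number of minimal regions (y) at each read count (x), one line per library, with SGC0946 libraries on the left and DMSO libraries on the right. The SGC0946 lines peak at 2 or 3 reads with a small shoulder near 10, and the DMSO lines are broad, with medians of 14, 13 and 15 reads.

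Every SGC0946 count was below every DMSO count in 5798 of the 7016 minimal regions, where 92.4% of all regions showed this separation. The opposite separation occurred in 73 minimal regions, against 0.742% of all regions. As a share of the library, minimal regions made up 0.831%, 0.899% and 0.678% of reads in the SGC0946 libraries, against 0.585%, 0.546% and 0.554% in the DMSO libraries. The share groups did not overlap, and the difference of 0.241 percentage points had an exact 2-sided permutation p of 0.1, the smallest that 3 libraries against 3 can give. The 8 comparisons of summed counts that were computed all gave that p of 0.1, before and after Benjamini-Hochberg adjustment, so their sizes and the separation of the libraries are what can be read. Longer regions in coding genes kept 16.97% ± 0.499, which is 7.48 percentage points less than the minimal regions. Just above the length limit, 205 regions of over 500 and up to 520 bp averaged 3.71 reads with SGC0946 and 18.9 with DMSO. At the edge of the overlap rule, 11 minimal regions that overlapped a coding gene by under 100 bp averaged 4.48 reads with SGC0946 and 16.1 with DMSO. Those 500 bp regions outside coding genes but within 1 kb of one (115 regions) averaged 4.33 with SGC0946 and 12.3 with DMSO.

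Percent kept differed with how isolated a minimal region was. Within 1 kb of another region, 3009 minimal regions averaged 3.36 ± 0.508 reads with SGC0946 and 16.3 ± 1.38 with DMSO, and kept 20.6%. At 1 to 3 kb the mean was 3.27 with SGC0946 and 14.8 with DMSO, and at 3 to 10 kb 3.45 with SGC0946 and 12.6 with DMSO. From 10 to 30 kb it was 3.95 with SGC0946 and 9.91 with DMSO, and from 30 to 100 kb 4.61 with SGC0946 and 7.66 with DMSO. Beyond 100 kb, 218 minimal regions averaged 4.63 ± 1.04 reads with SGC0946 and 4.27 ± 0.252 with DMSO. Their percent kept was 108% ± 24.3, being 117%, 127% and 81.02% in the 3 SGC0946 libraries and 122% without SGC0946 replicate 3. Over this range of distance the SGC0946 mean stayed between 3.27 and 4.63 reads, while the DMSO mean was lower in each farther class. In bulk chromatin, fewer cells carrying the mark and less mark per cell cannot be told apart.

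**Figure D2:**
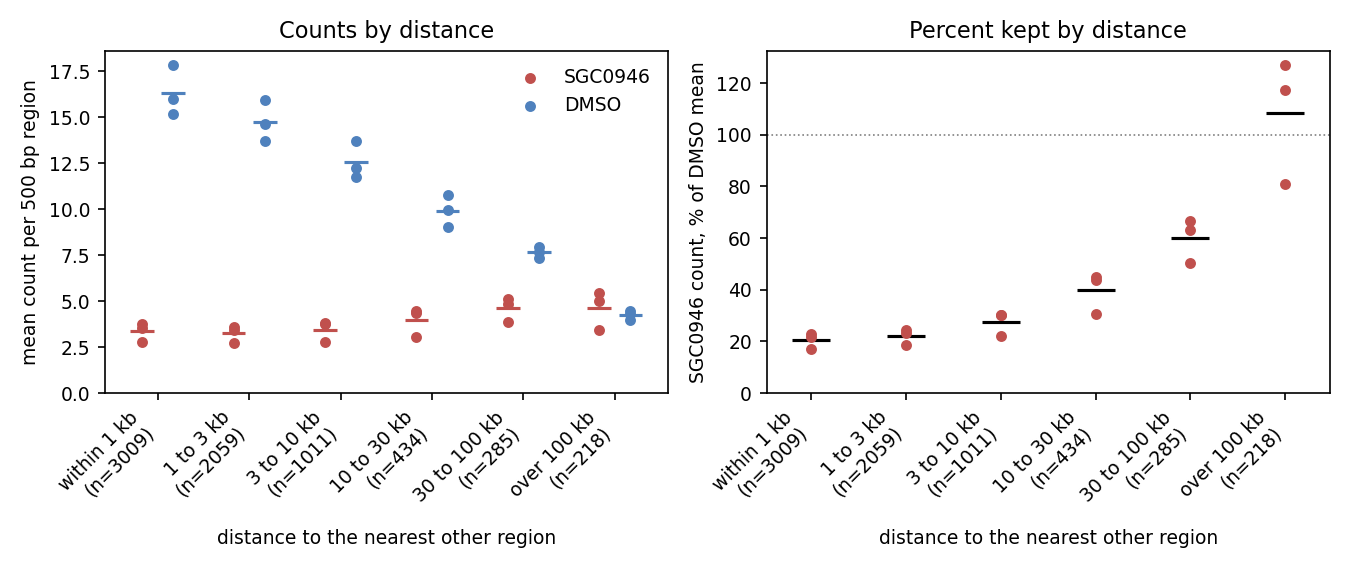
Left, mean read count per minimal region (y) by distance to the nearest other region (x), one point per library with SGC0946 left of DMSO and a bar at each group mean. Right, each SGC0946 library as a percent of the DMSO mean. The DMSO points descend with distance to 4.27 on average while the SGC0946 points stay under 6, and percent kept climbs from 20.6% to 108%.

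The ratio of reads within 1 kb to reads beyond 10 kb was 2.40, 2.51 and 2.64 in the SGC0946 libraries, against 6.51, 6.56 and 6.80 in the DMSO libraries, without overlap (exact permutation p = 0.1). Longer regions in coding genes did not show this gradient and kept 15.4% to 17.9% in all 6 distance classes. The beyond-10-kb to within-1-kb ratio of minimal regions, divided by that of longer regions, was 1.26 ± 0.0677 with SGC0946 and 0.473 ± 0.0121 with DMSO (SD, n = 3 each, exact permutation p = 0.1). The gradient was not particular to coding genes. The 1088 regions of 500 bp outside them averaged 4.68 ± 1.13 reads with SGC0946 and 6.42 ± 0.504 with DMSO and kept 72.9% in all, with 25.9% kept within 1 kb and 345% beyond 100 kb. The beyond-10-kb to within-1-kb ratio of minimal regions, divided by that of these outside regions, was 0.0962 ± 0.0166 with SGC0946 and 0.315 ± 0.0293 with DMSO (SD, n = 3 each, exact permutation p = 0.1).

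Within the SGC0946 group, the isolated regions differed from the others mainly in their single highest library. When the 3 counts of each region were put in order, the highest averaged 9.18 reads beyond 100 kb and 5.06 within 1 kb. The middle SGC0946 count averaged 3.28 beyond 100 kb and 3.23 within 1 kb, and the lowest 1.44 and 1.79. In 508 minimal regions no DMSO count exceeded 6, and in each of these the highest SGC0946 count stood alone, at 7 to 16 reads, with a median of 10. The median middle count of those 508 was 3 and the median lowest count 1. The highest count was in replicate 1 in 217 of them, in replicate 2 in 171 and in replicate 3 in 120. All but 3 of the 7016 minimal regions had at least 8 reads in an SGC0946 library or at least 12 in a DMSO library, limits chosen after the counts were seen. Whether regions were called in each library or in pooled reads is not known here, and its part in these values was not tested.

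Isolation went together with the rest of the gene. In 2879 genes that also held a longer region, 6352 minimal regions averaged 3.36 ± 0.530 reads with SGC0946 and 14.7 ± 1.17 with DMSO. In 565 genes with no longer region, 664 minimal regions averaged 4.50 ± 0.659 reads with SGC0946 and 9.13 ± 0.690 with DMSO. Percent kept was 22.8% in genes with a longer region and 49.2% in genes without, a difference of -26.4 percentage points. The ratio of the summed counts of these sets was 7.05, 7.33 and 7.07 in the SGC0946 libraries, against 15.9, 15.0 and 15.4 in the DMSO libraries, without overlap (exact permutation p = 0.1). Both properties could be separated in part. Minimal regions within 1 kb of another region in genes with no longer one (57 regions) kept 23.7%, and those beyond 10 kb in genes with a longer one (464 regions) kept 44.8%. Where both held, with no longer region and over 10 kb of distance, 473 minimal regions kept 66.4%.

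**Figure D3:**
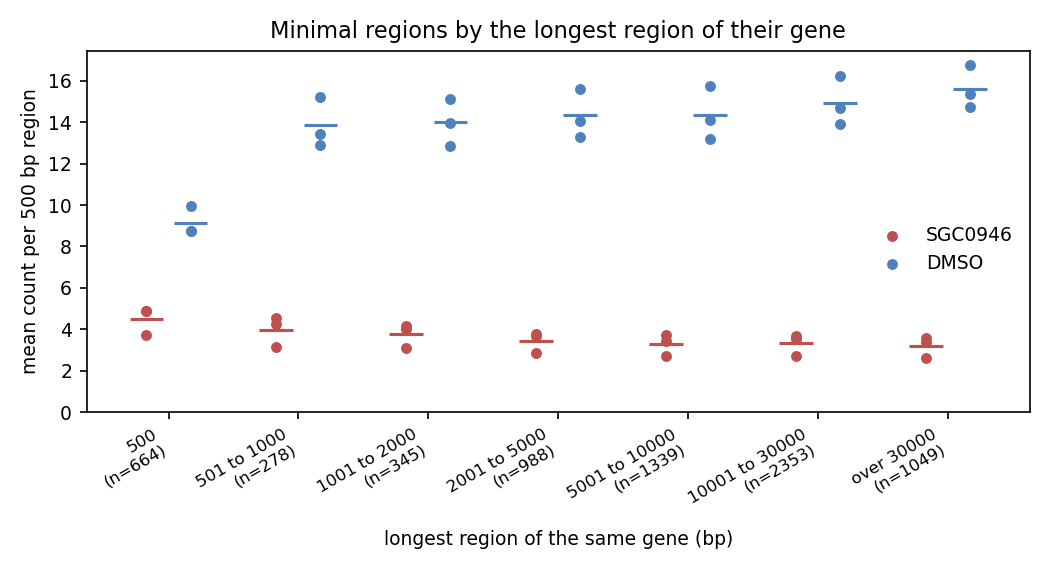
Mean read count per minimal region (y) by the length of the longest region in the same gene (x), one point per library with SGC0946 left of DMSO and a bar at each group mean. Genes whose regions are all 500 bp long (n = 664 regions) stand apart with a DMSO mean of 9.13, while the other classes lie between 13.9 and 15.6.

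Among genes with a longer region, the length of the longest one made a smaller difference. Where it was over 500 and up to 1000 bp, minimal regions averaged 3.98 reads with SGC0946 and 13.9 with DMSO, and kept 28.8%. Where it exceeded 30000 bp, they averaged 3.20 with SGC0946 and 15.6 with DMSO, and kept 20.5%. Placement within the gene followed the broad regions. Between longer regions of the same gene lay 3417 minimal regions, with 3.35 reads with SGC0946 and 15.8 with DMSO. Downstream of all longer regions lay 2179, with 3.26 reads with SGC0946 and 13.3 with DMSO. Only 212 lay upstream of all longer regions, with 4.80 ± 0.624 reads with SGC0946 and 16.6 ± 1.24 with DMSO, so 91.1% of those outside the longer regions on a known strand were on the 3′ side. By gene length, 23.0% of minimal regions were centred in the first 20% of the gene and 12.7% in the last 20%, against 34.1% and 7.63% of longer regions.

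**Figure D4:**
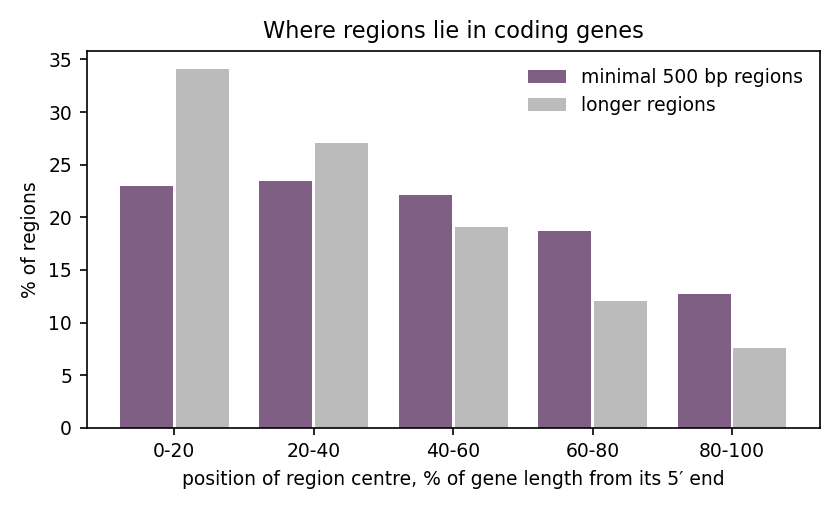
Percent of regions (y) centred in each of 5 equal parts of the gene, from its 5′ end (x), for 5686 minimal and 15927 longer regions whose gene has a strand in the promoter table. Longer regions decline from 34.1% to 7.63%, and minimal regions stay between 22.1% and 23.5% over the first 3 classes.

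Genes with many minimal regions were long ones in which region calling gave many separate intervals. Foxp1, a forkhead transcription factor, held 33 minimal and 28 longer regions over 597 kb, and its minimal regions summed to 144, 129 and 89 reads with SGC0946 and 496, 385 and 508 with DMSO. Arhgap24, a GTPase-activating protein, held 24 that summed to 81, 82 and 58 reads with SGC0946 and 295, 269 and 387 with DMSO. Cadm1, a cell adhesion molecule, held 22 that summed to 73, 78 and 69 reads with SGC0946 and 301, 353 and 376 with DMSO. In all 3 genes the groups lay far apart. Hdac9, a class IIa histone deacetylase, and 1700025G04Rik held 21 each, and percent kept over the 5 genes ran from 21.4% in Cadm1 to 26.1% in Foxp1.

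Of the 6 minimal regions with the highest DMSO mean, 5 were upstream of all longer regions of their gene. Over all minimal regions the classes lay closer. The 212 upstream ones averaged 16.6 reads with DMSO, against 15.8 for the 3417 between longer regions. The Pitpnc1 region (a phosphatidylinositol transfer protein, chr11:107469554-107470053) had 16, 10 and 4 reads with SGC0946 and 70, 53 and 60 with DMSO. The Wdr47 region had 8, 10 and 8 reads with SGC0946 and 52, 48 and 44 with DMSO. The SGC0946 counts were more spread in Pitpnc1 than in Wdr47, and in both they stayed far under DMSO. The Mrps15 region (a mitochondrial ribosomal protein) had 12, 15 and 5 reads with SGC0946 and 45, 41 and 57 with DMSO. The Nckipsd region (an SH3 adaptor) had 9, 6 and 7 reads with SGC0946 and 34, 49 and 56 with DMSO. The Pgm2l1 region (glucose-1,6-bisphosphate synthase) had 5, 1 and 5 reads with SGC0946 and 44, 41 and 53 with DMSO, the lowest percent kept of the 6 at 7.97%. The remaining one, in 2310061I04Rik, had no longer region in its gene and 16, 6 and 4 reads with SGC0946 and 50, 48 and 63 with DMSO. All 6 were lower with SGC0946 in edgeR's quasi-likelihood test on unscaled counts, and Pgm2l1 alone of the 6 was also lower in library share (log2 change -1.09, adjusted p = 0.0437). That call was lost with TMM factors (adjusted p = 0.101), with DESeq2 size factors (0.108), and without SGC0946 replicate 1 (0.0531) or replicate 2 (log2 change -0.65, adjusted p = 0.377), all in edgeR.

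Across the whole table that test, after a count filter, called 99.7% of 24895 regions lower with SGC0946 and 0.0201% higher. The filter let 3893 minimal regions through, 3839 of them because all 3 DMSO libraries reached 10 reads and 1, in Clec2g, through the SGC0946 libraries alone. The 3854 called lower were thus mostly chosen by a high DMSO count. Without the filter all 7016 were tested, and 6125 were lower and 64 higher, against 93.9% and 0.67% of all regions. By distance, the share called lower was 96.9% within 1 kb and 18.3% beyond 100 kb. In library share the filtered test took 2615 minimal regions and called 239 higher and 5 lower, against 6.16% and 23.3% of all regions. At these counts the share test had little power to call a fall, so its counts in the 2 directions cannot be set against each other. Of these 2615, 756 passed through the SGC0946 libraries only and 415 through the DMSO libraries only. Without the filter 804 were higher and 8 lower, against 9.47% and 18.6% of all regions. With the filter and TMM factors 293 were higher and 2 lower, against 8.38% and 15.1%, and with DESeq2 size factors 299 and 2, against 8.51% and 13.8%. Leaving out SGC0946 replicate 1, 2 or 3 gave 377, 381 and 545 called higher after the filter, and leaving out any DMSO library gave 7 of the 10 or 11 then tested. The median log2 change in share was 0.43 over the minimal regions tested, against -0.09 over all regions tested. The p-values set the difference between groups against the spread within 3 cultures a group. Regions were called on the same assay, and the effect of that on the p-values was not tested.

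Minimal regions with a DMSO mean of at least 20 reads had a median percent kept of 16.7%, with quartiles of 12.9% and 21.3%. Those named here are the extremes among the ones called lower without overlap, picked by percent kept at few SGC0946 reads. At the upper end, H2-DMb1 (a chaperone of MHC class II peptide loading) had 6, 11 and 12 reads with SGC0946 and 20, 25 and 25 with DMSO. Suclg2 (a subunit of succinyl-CoA ligase) had 11, 8 and 7 reads with SGC0946 and 16, 24 and 24 with DMSO. Stx11 (a syntaxin of granule exocytosis) had 7, 9 and 10 reads with SGC0946 and 23, 23 and 26 with DMSO. H2-DMb1 kept the most, 41.4%, and the 6 at this end, with Cbx6, Fam102a and Trps1, kept at least 34.4%. At the lower end, Fermt3 (kindlin-3, an integrin activator) had 0, 2 and 0 reads with SGC0946 and 24, 14 and 30 with DMSO. Sec24b (a COPII coat subunit) had 0, 1 and 2 reads with SGC0946 and 26, 32 and 20 with DMSO. Prrc2c had 1 read in each SGC0946 library and 20, 20 and 21 with DMSO. Etv1, Syne3 and Asap1 each summed to 3 reads with SGC0946, and Fermt3 kept the least, 2.94%. These SGC0946 counts sum to 2 or 3 reads, so the order within the lower end cannot be read.

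One minimal region was called higher on unscaled counts after the filter. It lay in Clec2g, a C-type lectin gene, and had 10, 12 and 11 reads with SGC0946 and 4, 2 and 11 with DMSO. The groups overlapped at 11 reads, and the call (log2 change 0.94 ± 0.45 SE, edgeR adjusted p = 0.036) was lost without the filter (adjusted p = 0.0857) and when any library but DMSO replicate 3 was left out (adjusted p 0.0922 to 0.27). The 64 called higher without the filter all lay over 10 kb from another region, 53 of them in genes with no longer region. Their SGC0946 means ran from 3.33 to 8.0 reads and their DMSO means from 0 to 2.0, none of them passed the count filter, and 11 had no DMSO read at all. Enox1 had 10, 8 and 4 reads with SGC0946 and 0, 0 and 1 with DMSO, the lowest adjusted p of the 64 in edgeR (0.0039). Grip1 had 7, 5 and 9 reads with SGC0946 and 1, 0 and 0 with DMSO. Agxt2 had 3, 10 and 4 reads with SGC0946 and none with DMSO. In Enox1, Grip1 and Agxt2, named after their values were seen, the groups did not overlap, as in 36 of the 64, against 0.742% of all regions. The 64 were picked by their rise in the edgeR test, so this separation is no further support for a rise. In every minimal region with no DMSO count above 6, the highest SGC0946 count was at least 7. The effect of this on these p-values was not tested. The Cacna2d3 region had 0, 7 and 8 reads with SGC0946 and none with DMSO, so its groups met at 0.

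Genes of macrophage function carried minimal regions that fell with the rest. Of 30 macrophage identity genes, 8 held 22 minimal regions, of which 21 were lower on unscaled counts without the filter, with 17.4% kept. By that test 93.9% of all regions and 87.3% of all minimal regions were lower, so the counts of these lists lie near the background. In Mrc1, the mannose receptor, the best covered one had 4, 2 and 1 reads with SGC0946 and 23, 19 and 35 with DMSO. Another Mrc1 region had 4, 0 and 1 reads with SGC0946 and 18, 23 and 26 with DMSO, again without overlap. The remaining Mrc1 region had 9, 1 and 4 reads with SGC0946 and 3, 5 and 3 with DMSO, and its groups overlapped. Csf1r, the M-CSF receptor, had 3, 4 and 2 reads with SGC0946 and 18, 14 and 19 with DMSO.

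Lipid genes showed the same direction. Of 42 lipid synthesis and uptake genes, 13 held 16 minimal regions and all 16 were lower without the filter, where 93.9% of all regions were, with 20.4% kept. Gpam, which starts glycerolipid synthesis, had 6, 5 and 4 reads with SGC0946 and 43, 40 and 44 with DMSO. Dgat1, which makes triacylglycerol, had 7, 7 and 6 reads with SGC0946 and 26, 21 and 39 with DMSO. Gpam and Dgat1 held no longer region, and the Gpam one lay 154.83 kb from the nearest region, yet both had DMSO counts well above the mean of 9.13 for genes without a longer region. Fasn, fatty acid synthase, had 9, 6 and 3 reads with SGC0946 and 11, 14 and 14 with DMSO, a narrower separation. Of 20 cholesterol efflux and LXR genes, 10 held 20 minimal regions and 19 were lower. Lpcat3, which remodels phospholipids, had 5, 6 and 6 reads with SGC0946 and 37, 34 and 34 with DMSO, and Abca1, the cholesterol exporter, had 6, 5 and 2 with SGC0946 and 24, 22 and 26 with DMSO.

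Signalling, lysosomal and chromatin genes followed. All 15 minimal regions in 9 inflammatory genes were lower without the filter, again near the 93.9% of all regions. Tlr9, a sensor of CpG DNA, had 5, 8 and 10 reads with SGC0946 and 23, 27 and 21 with DMSO, and kept 32.4%. Cd86, a T-cell costimulator with only 500 bp regions, had 2, 3 and 3 reads with SGC0946 and 15, 16 and 17 with DMSO in one of them. All 10 minimal regions of 7 interferon and JAK-STAT genes were lower, and Irf2 had 5, 6 and 2 reads with SGC0946 and 31, 31 and 35 with DMSO. Of 32 in lysosome and phagocytosis genes 31 were lower, and Atp6v0a1, a proton pump subunit, had 5, 7 and 11 reads with SGC0946 and 27, 30 and 31 with DMSO. Kinase and small GTPase genes held 92, of which 86 were lower, and Mapk14, the p38 alpha kinase, had 6, 9 and 9 reads with SGC0946 and 28, 41 and 37 with DMSO. Chromatin genes and DOT1L partners held 119, of which 110 were lower. Dot1l itself had 1, 3 and 1 reads with SGC0946 and 11, 14 and 17 with DMSO. All 30 ribosomal protein genes had a region but just Rpl4 had a minimal one, with 4, 2 and 3 reads with SGC0946 and 10, 9 and 19 with DMSO. Leaving aside the single Rpl4 region, the median log2 change of these lists without the filter ran from -2.51 for macrophage identity to -2.05 for chromatin, against -2.13 over all minimal regions and -2.54 over all regions.

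**Figure D5:**
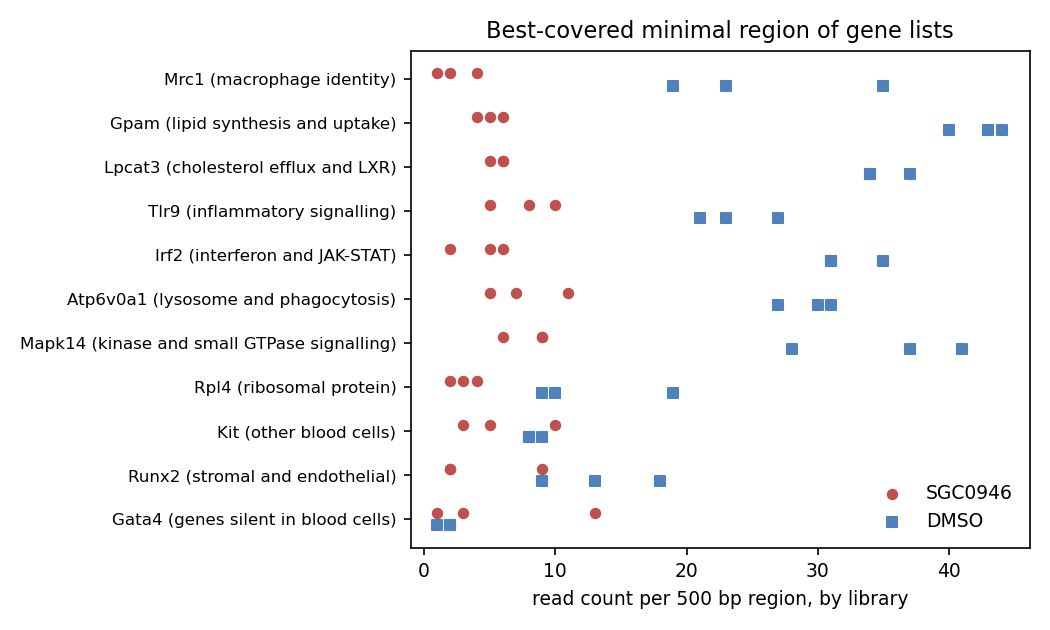
Read counts (x) of the best covered minimal region of 11 gene lists (y), one marker per library, with SGC0946 circles drawn above DMSO squares; libraries with equal counts coincide. The groups are apart for the upper 8 genes, from Mrc1 to Rpl4, and meet or overlap for Kit, Runx2 and Gata4.

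Minimal regions in genes of other lineages did not fall together. The 6 in 5 genes of other blood cells summed to 45, 37 and 33 reads with SGC0946 and 26, 19 and 25 with DMSO, and none was called either way on unscaled counts without the filter. In library share without the filter all 6 were higher, where 9.47% of all regions were. All 5 genes held only 500 bp regions. Kit, the stem cell factor receptor, had 5, 3 and 10 reads with SGC0946 and 9, 8 and 8 with DMSO. Mpo, the myeloperoxidase of neutrophil granules, had 12, 8 and 7 reads with SGC0946 and 7, 3 and 1 with DMSO in one region, and 11, 6 and 4 with SGC0946 and 3, 3 and 8 with DMSO in the other. Lck, a T-cell kinase, had 8, 6 and 3 reads with SGC0946 and 2, 1 and 1 with DMSO, without overlap but with an adjusted p of 0.0981 in edgeR. In the 2 stromal genes with minimal regions, Cxcl12, a chemokine, had 7, 2 and 9 reads with SGC0946 and 0, 0 and 1 with DMSO and was called higher without the filter (adjusted p = 0.0136 in edgeR). The Cxcl12 region is 1 of the 64 described above, and the same limit holds for its p-value. One of the minimal regions of Runx2, the bone cell regulator, had 2, 9 and 2 reads with SGC0946 and 13, 18 and 9 with DMSO. Its groups met at 9 reads, and it was lower without the filter (adjusted p = 0.00322 in edgeR). The remaining Runx2 region was called neither way by that test. Together the 3 minimal regions of this list summed to 19, 16 and 14 reads with SGC0946 and 15, 18 and 14 with DMSO.

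Of 28 genes listed as silent in blood cells, 3 held 1 minimal region each, none of them called either way on unscaled counts without the filter and all 3 higher in library share. Gata4, a heart regulator, had 3, 13 and 1 reads with SGC0946 and 2, 1 and 2 with DMSO. Lrp1b had 1, 12 and 1 reads with SGC0946 and 1, 0 and 2 with DMSO. In Gata4 and Lrp1b SGC0946 replicate 2 was high and the groups overlapped, with the other SGC0946 libraries at 1 to 3 reads.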

How the data were processed

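H3K79me2 ChIP-seq was compared between 3 SGC0946 and 3 DMSO libraries. The authors deposited whole-number read counts per region, not normalized. The build was mm10 and the tools included HOMER 4.11.1, R 3.6.3 and HISAT2, with ChIPseeker 1.20.0 and bedtools 2.27.0 also listed, per the submitters' processing notes. Region calling and read filters are not given in the sources used here. Starts were read as 0-based and are printed 1-based, and gene spans and promoter windows came from RefSeq GRCm38.p6 (windows and strand not used for chromosome 18). Members, gene lists and comparisons were chosen with earlier results of these data known.

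edgeR 4.0.16 (R 4.3.3) quasi-likelihood tests were fitted to the whole table, on unscaled counts and with column totals as library sizes, after filterByExpr (minimum 10). P-values were Benjamini-Hochberg adjusted over all regions tested, with a threshold of 0.05. Fits were checked on simulated counts of minimal regions, in which the share test recovered rises far more often than falls. Summed counts were compared over libraries with exact 2-sided permutation tests in scipy 1.17.1. Named regions were the 6 with the highest DMSO mean, the 6 most and 6 least kept among those called lower without overlap at a DMSO mean of at least 20, those called higher, the best covered one of each list, the 5 genes with most, and the best covered holding a promoter window; the others named were chosen after their values were seen, and 1 that the rule names is not reported here. Alternatives were no filter, a mean of at least 20 reads, DESeq2 1.42.0, TMM and DESeq2 size factors, a replicate block, each library left out, and regions wholly inside a gene.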

Additional observations from a re-analysis of the deposited data

How the results depend on the processing

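The 3854 minimal regions called lower on unscaled counts became 6125 without a filter, 43 at a mean of at least 20 reads (43 tested) and 5783 with DESeq2's Wald test, and 4121 to 5479 with 1 library left out. The 1 called higher became 64, 0 and 65 under the first 3 of these and 0 to 1 with a library left out. In library share, the 5 called lower became 8 without a filter, 3 at a mean of at least 20, 0 with the Wald test, 2 with TMM and 2 with DESeq2 size factors, and 0 to 12 with a library left out. The 239 called higher became 804 without a filter, 1 at a mean of at least 20, 734 with the Wald test, and 7 to 545 with a library left out. Leaving out a DMSO library left only 10 or 11 minimal regions tested in library share. The median log2 change moved to -2.64 on unscaled counts at a mean of at least 20. In library share it moved to 0.57 with DESeq2 size factors, reversed to -0.11 at a mean of at least 20, and ran from 0.24 to 1.77 with a library left out. Each stricter filter tests fewer regions by construction, and no other cause was tested.

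The library labels carry the same numbers, M1 to M3, in both groups. Deviations of same-numbered libraries had Pearson r of 0.00619, -0.0889 and -0.0206 over 15521 regions. Differently numbered libraries ran from -0.0720 to 0.0869, so these values cannot show whether the cultures were paired. The main fits did not read the numbers as pairs. With a replicate block, 3848 were lower and 1 higher on unscaled counts, and 247 higher and 5 lower in share. Percent kept stayed between 23.1% and 26.6% with any library left out, and the comparisons of summed counts in the design kept their direction. For named regions, 380 alternatives with TMM or DESeq2 size factors, a replicate block or a library left out were compared. Of these, 5 gained and 19 lost a call, and no call changed direction. Fits in which a region was no longer tested are not among the 380. Changes that were not called could change sign, as in Pitpnc1 in library share (log2 change -0.06, and 0.07 with TMM factors). At 3 reads per region, single SGC0946 counts limit every value given for 1 region.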
